A study of Mus musculus with 6 samples.

Results

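Nicotinamide nucleotide transhydrogenase, encoded by Nnt, and 7 further mitochondrial proteins were followed through heart RNA. The 7 make NADPH, spend it on removing peroxide or, for SOD2, turn superoxide into hydrogen peroxide. The hearts came from 3 wild-type mice (WT2368, WT2379 and WT2378) and 3 SRAKO mice (SRAKO2365, SRAKO2371 and SRAKO2372). All 6 mice had received isoproterenol, a beta-adrenergic agonist, for 4 weeks. SRA is the steroid receptor RNA activator, and the comparison asks how cardiac transcripts differ between WT and SRAKO mice under this stimulus. Strain, sex, age, and the part of the gene removed in SRAKO mice are not given in the sources used here, and untreated hearts were not analysed here. The 8 genes were Nnt, Idh2, Me3, Sod2, Prdx3, Prdx5, Txn2 and Txnrd2, each read from the single row of the expression table that carries its symbol, so 8 of 25901 rows. The set was chosen by the FPKM difference of Nnt between the genotypes, which was already known, so the genotype differences of all 8 genes are descriptions with no test.

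NADPH is the reducing currency of mitochondrial antioxidant defence. In the matrix it comes from NNT, which uses the proton gradient to pass hydride from NADH to NADP+, from the isocitrate dehydrogenase IDH2, and from the malic enzyme ME3. Electrons from NADPH reach thioredoxin 2 through thioredoxin reductase 2, and thioredoxin 2 recharges the peroxiredoxins PRDX3 and PRDX5, which break down peroxides. Much of that hydrogen peroxide is formed from superoxide by SOD2. Heart muscle, dense with respiring mitochondria, relies heavily on this chain.

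Levels are in FPKM, a fragment count scaled to transcript length and library size, so that genes can be compared. Differences subtract WT from SRAKO as log2(FPKM + 1) and come from a limma fit over the 10201 rows that reached an FPKM of 1 in 3 or more hearts. All 8 genes passed that filter. The labels do not say that the hearts came from separate litters or days, so p-values of other genes below measure the spread between these samples. Sra1 itself was at 1.78 to 2.05 in SRAKO hearts and 4.23 to 6.31 in WT hearts, a log2 difference of -1.01. Even Sra1 did not pass the adjusted threshold (limma, Benjamini-Hochberg adjusted p = 0.258). A gene below that did not pass it is therefore not shown to be unchanged. All 10 cardiomyocyte markers were present in every heart, among them Myh6, the alpha myosin heavy chain, at 2393 to 2745. WT2368 and SRAKO2371 stood apart in structural RNAs. The mitochondrial 12S ribosomal RNA mt-Rnr1 was at 4548 in WT2368 and 1896 in SRAKO2371, against 879 to 1122 in the other hearts, and the small nuclear RNA Rn7sk was at 242 and 114 against 2.12 to 15.1. In WT2368 the median over all tested rows lay 0.10 below the WT mean on the log2 scale. The differences of the 8 genes and the list medians that rest on these hearts are given with and without them.

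Nnt RNA in SRAKO hearts stood at 199% of its WT level. It measured 23.6 in WT2368, 36.7 in WT2379 and 38.1 in WT2378, against 66.9 in SRAKO2365, 51.0 in SRAKO2371 and 78.4 in SRAKO2372. The genotypes did not overlap, and the lowest SRAKO heart was 1.34 times the highest WT heart. The WT mean was 32.8 ± 7.99 and the SRAKO mean 65.4 ± 13.8 (SD, n = 3 for each genotype), a log2 difference of 0.98 (SE 0.22). Within a genotype Nnt also varied, by 1.61 times between the WT hearts and by 1.54 times between the SRAKO hearts. The most extreme WT value was that of WT2368. Without WT2368 the difference was 0.77, without both WT2368 and SRAKO2371 it was 0.94, and leaving out each heart in turn kept it between 0.77 and 1.15. In whole-heart RNA, fewer cells of a type and less RNA per cell cannot be told apart.

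**Figure D1:**
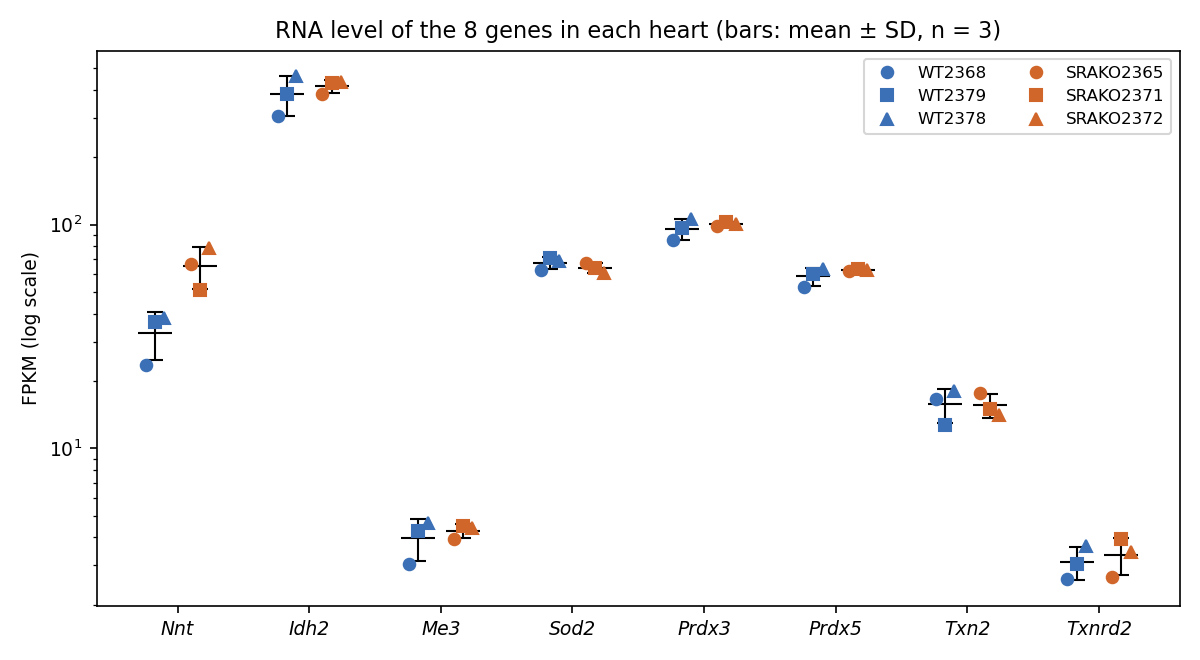
FPKM on a log axis for each of the 8 genes, with WT hearts in blue and SRAKO hearts in orange, and the mean ± SD of each genotype (n = 3). Nnt is the gene whose SRAKO hearts (51.0 to 78.4) all lie above its WT hearts (23.6 to 38.1).

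Of the 8 genes, Nnt was the 1 whose genotypes did not overlap. Among all tested rows 8.05% were free of overlap, 4.28% with SRAKO above WT and 3.76% with SRAKO below, and nothing is read from the count of 1, since Nnt was chosen for its difference. Nnt ranked 18 of 10201 by log2 difference. Among the 437 rows whose SRAKO hearts all exceeded the WT hearts it ranked 3, below 5430431A17Rik (1.58) and the zinc finger gene Zfp46 (1.02), both named after their values were seen. Among the 525 rows at least as abundant as Nnt it ranked 2.

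The Nnt row is a StringTie locus that joins 7 transcripts, 1 of them assembled from the reads, at chr13:119335448-119408997 on the minus strand (GRCm38, GENCODE M21). The table names it Nnt and AC154550.1, and the annotation holds a pair of overlapping gene records there, both named Nnt. Of its annotated transcripts 4 are protein coding, with 14 to 17 exons, and the longest has 3464 bases. Transcript-level values were not analysed here, and the FPKM was not divided between full-length and truncated forms. Nnt is known for a deletion of several exons that the substrain C57BL/6J carries and C57BL/6N lacks. The assembly GRCm38, on which these transcripts are annotated, is of C57BL/6J.

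The 6 tested genes close to Nnt on the chromosome had differences between -0.17 and 0.09. Within 1 Mb the annotation has 55 other genes, of which 17 had a row and 6 passed the filter. Paip1, a regulator of translation that lies 19.6 kb away, was at 6.58, 6.54 and 6.30 in WT2368, WT2379 and WT2378 and at 7.35, 6.40 and 7.18 in SRAKO2365, SRAKO2371 and SRAKO2372. Its genotypes overlapped, with a log2 difference of 0.09. The differences were 0.03 for Mrps30, a protein of the mitochondrial ribosome, -0.01 for 4833420G17Rik, 0.04 for Hmgcs1, an enzyme of cholesterol synthesis, and -0.04 for Zfp131. Tmem267 was the tested neighbour whose genotypes did not overlap, with a WT mean of 1.39 ± 0.245 and an SRAKO mean of 1.12 ± 0.0326, a difference of -0.17 in the direction opposite to Nnt. None of the 6 passed limma with Benjamini-Hochberg adjustment (adjusted p = 0.999 for each), and 0 of them had an unadjusted p under 0.05. Among the weak rows that were not tested, B430218F22Rik was listed at 0 in all WT hearts and at 0.258, 0.244 and 0.240 in SRAKO2365, SRAKO2371 and SRAKO2372. Ccl28, a chemokine gene, was at most 0.0101 in WT and 0.0184 to 0.0270 in SRAKO. Both ran in the direction of Nnt without overlap, and the other untested rows overlapped. These 2 genes were named after their values were seen.

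**Figure D2:**
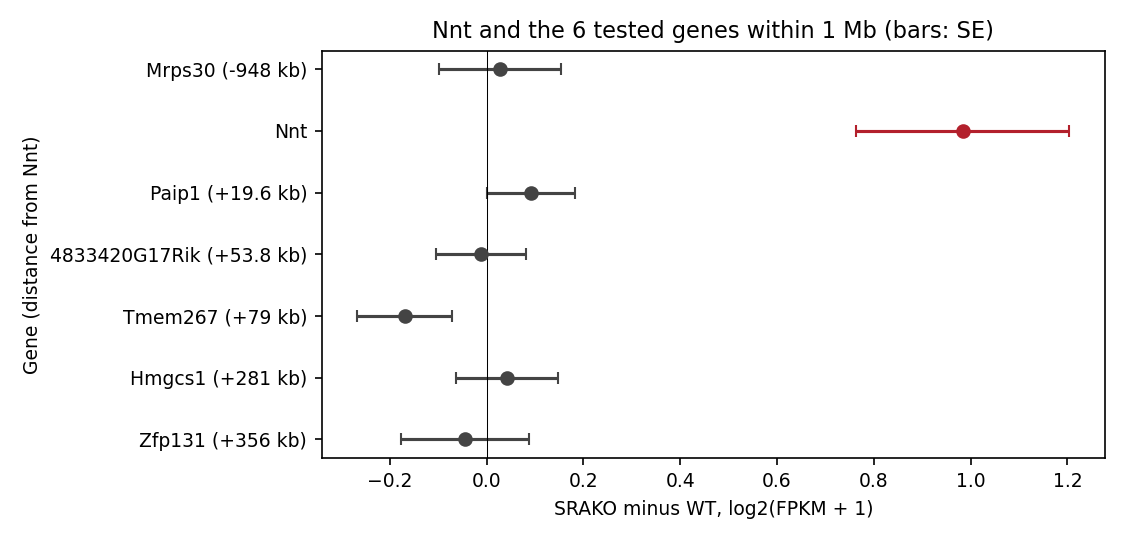
Log2 difference with its SE for Nnt (red) and the 6 tested genes within 1 Mb (grey), listed by distance in kb from the Nnt gene. Nnt stands at 0.98, while these neighbours lie between -0.17 and 0.09.

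Other genes reported to differ in RNA between C57BL/6 substrains are Entpd4, Entpd4b, Wdfy1, Ide and Fgfbp3. The first 4 were tested and had differences below 0, as did 4744 of all 10201 tested rows. Fgfbp3 was too weak to be tested and was at 0.214 to 0.398 in WT and 0.308 to 0.387 in SRAKO. Entpd4c, also on the list, had no row of its own symbol. Entpd4, a nucleotide phosphatase of internal membranes, was at 5.00, 9.10 and 6.06 in WT2368, WT2379 and WT2378 and at 4.50, 4.45 and 4.72 in SRAKO2365, SRAKO2371 and SRAKO2372. Each SRAKO heart was below each WT heart, as in 3.76% of all tested rows. The log2 difference was -0.44 (limma, Benjamini-Hochberg adjusted p = 0.999). Its near-identical copy Entpd4b, which can share reads with it, had 8.27 ± 2.63 and 5.22 ± 0.152, a difference of -0.54 (adjusted p = 0.999). Wdfy1, an endosomal adaptor, was at 2.04 ± 0.255 and 1.53 ± 0.502 and overlapped, a difference of -0.28. The insulin-degrading enzyme gene Ide was at 7.41 ± 1.06 and 7.20 ± 0.493 and overlapped, a difference of -0.03 (SE 0.12). The part of strain background in the Nnt difference was not tested.

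The genes nearest to Nnt in profile also had their lowest value in WT2368. Nearness was the root-mean-square difference between centred log2 values over the 6 hearts, ranked over 9316 rows with an established symbol. It is a description, since Nnt was chosen for its pattern. The 6 nearest were Fam107a (0.22 log2 units away), the hypoxia-inducible factor subunit Hif3a (0.25), the translation factor Eif4h (0.25), the alpha-arrestin Arrdc2 (0.28), the cytokine-like protein Cytl1 (0.28) and the calcium channel subunit Cacna2d1 (0.29). A flat profile lay 0.57 away. Hif3a was at 0.598, 0.951 and 0.893 in WT2368, WT2379 and WT2378 and at 1.63, 1.18 and 2.41 in SRAKO2365, SRAKO2371 and SRAKO2372. In Hif3a, as in Nnt, SRAKO2371 was the lowest and SRAKO2372 the highest of the SRAKO hearts. None of the 7 partner genes came near: Idh2 was the closest of them at rank 798, and Txn2 the farthest at rank 7290.

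The 2 remaining NADPH-making enzymes overlapped between genotypes. Idh2, the mitochondrial NADP+-dependent isocitrate dehydrogenase, had the highest FPKM of the 8 genes, at 305, 383 and 462 in WT2368, WT2379 and WT2378 and 384, 431 and 434 in SRAKO2365, SRAKO2371 and SRAKO2372. The SRAKO hearts lay within the WT range, and the means were 383 ± 78.6 for WT and 416 ± 27.8 for SRAKO, a log2 difference of 0.14 (SE 0.16). Me3, the mitochondrial NADP+-dependent malic enzyme, was weak, at 3.04, 4.26 and 4.63 in the WT hearts in the same order and 3.95, 4.51 and 4.39 in the SRAKO hearts. Its genotypes overlapped as well, with a difference of 0.10 (SE 0.14). Without WT2368 both differences changed sign, to -0.02 for Idh2 and -0.04 for Me3. Idh2 occupies chr7:80094846-80115392 (minus strand) and Me3 chr7:89632392-89854359 (plus strand). An antisense gene, A230065N10Rik, overlaps Me3, and without strand information their reads cannot be told apart.

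Idh2 and Me3 kept a near-constant proportion although their levels were far apart. Idh2 was 89.9 to 100.4 times as high as Me3 in all 6 hearts. Against Nnt the proportion shifted with genotype, which restates the difference for which Nnt was chosen. Nnt amounted to 0.0774, 0.0959 and 0.0824 of the Idh2 level in WT2368, WT2379 and WT2378, and to 0.174, 0.118 and 0.181 of it in SRAKO2365, SRAKO2371 and SRAKO2372. Of the summed FPKM of the 8 genes, Nnt made up 4.92% ± 0.616 in WT hearts and 8.93% ± 1.77 in SRAKO hearts. The other 7 summed to 628 ± 98.96 and 667 ± 26.6, and these ranges overlapped.

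Sod2, the manganese superoxide dismutase that turns superoxide into hydrogen peroxide, had the narrowest range of the 8. It was at 63.0, 70.8 and 68.5 in WT2368, WT2379 and WT2378 and at 67.0, 64.1 and 60.7 in SRAKO2365, SRAKO2371 and SRAKO2372. The genotypes overlapped, and the means were 67.5 ± 4.02 for WT and 63.96 ± 3.15 for SRAKO, a log2 difference of -0.07 (SE 0.10). From the lowest to the highest heart Sod2 spanned 1.17 times, where the median of 2419 rows with a mean FPKM of at least 10 was 1.34 times. Nnt spanned 3.32 times, a spread reached by 2.98% of those rows. Sod2 occupies chr17:13007817-13020134 (plus strand).

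The peroxiredoxins Prdx3 and Prdx5 moved almost in step from heart to heart. Prdx3, the matrix peroxiredoxin that removes much of the mitochondrial hydrogen peroxide, was at 85.3, 96.5 and 105.8 in WT2368, WT2379 and WT2378 and at 98.4, 102.9 and 100.9 in SRAKO2365, SRAKO2371 and SRAKO2372. Prdx5, an atypical peroxiredoxin of mitochondria, peroxisomes and cytosol, was at 52.6, 60.1 and 63.3 in the WT hearts and 62.3, 63.1 and 62.6 in the SRAKO hearts in the same orders. In both genes all 3 SRAKO hearts fell between the extremes of the WT hearts, of which WT2368 was the lowest. The log2 differences were 0.08 for Prdx3 and 0.10 for Prdx5 (SE 0.11 for each), and without WT2368 they were 0.00 and 0.02. The proportion of Prdx3 to Prdx5 stayed between 1.58 and 1.67 in the 6 hearts, the narrowest of the 28 pairs. Prdx3 occupies chr19:60864051-60874556 and Prdx5 chr19:6906697-6910106, both on the minus strand. Prdx5 overlaps Trmt112 on the opposite strand by 409 bases.

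Promoter sequences of 7 of the 8 genes were found in RefSeq's table (GRCm38.p6), and Nnt was not among them. The 250 bases before the start of Prdx3 (chr19:60874539-60874788, minus strand) and Prdx5 (chr19:6910107-6910356, minus strand) are shown because this pair, chosen after its values were seen, kept the steadiest proportion. Starts are those of RefSeq and can differ from the GENCODE positions printed here. By GENCODE the windows of Prdx3, Idh2, Sod2, Txn2 and Txnrd2 reach into their genes. That of Me3 lies inside its gene, and that of Prdx5 does not reach into it. Capitals mark the GC box GGGCGG, read on either strand.
Prdx3: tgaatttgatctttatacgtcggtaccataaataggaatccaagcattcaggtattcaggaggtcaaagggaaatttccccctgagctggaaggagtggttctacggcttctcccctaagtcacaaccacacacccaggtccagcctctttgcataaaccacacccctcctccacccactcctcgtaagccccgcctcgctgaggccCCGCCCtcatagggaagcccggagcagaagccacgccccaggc
Prdx5: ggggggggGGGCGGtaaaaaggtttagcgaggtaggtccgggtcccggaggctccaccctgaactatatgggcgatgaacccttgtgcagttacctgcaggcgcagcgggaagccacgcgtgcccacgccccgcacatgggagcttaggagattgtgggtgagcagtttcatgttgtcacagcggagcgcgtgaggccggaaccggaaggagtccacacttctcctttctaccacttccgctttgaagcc
Each window holds 1 GC box, 43 bases before the start in Prdx3 and 242 bases before it in Prdx5, so the position differs. GGGCGG occurs in 32.7% of the 32851 promoter windows of that length, and 6 of the 7 promoters found held it, with 4 matches in Sod2, 2 each in Idh2 and Txn2, 1 in Txnrd2 and none in Me3. These 7 windows were also richer in G and C, at 55.6% to 67.2% against a median of 52.4% over all windows. The share with a GC box is therefore not read as a trait of the genes. TGACNNNGC, the core of the antioxidant response element read by NRF2, had no match on either strand in any of the 7 windows and occurs in 10.2% of all. AAGGTCA, a sequence bound by oestrogen-related receptors, likewise had no match in the 7 and occurs in 4.08%. GTAAACA, a sequence bound by FOXO factors, had none either, against 3.17% of all, and CCGGAAG, bound by ETS factors, had 1 match each in Prdx5 and Txn2 and occurs in 6.91%. A match or its lack describes these letters in this window alone.

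Thioredoxin 2 and its reductase each overlapped between genotypes, and their proportion was not steady. Txn2, the mitochondrial thioredoxin, was at 16.5, 12.7 and 18.02 in WT2368, WT2379 and WT2378 and at 17.8, 15.0 and 14.1 in SRAKO2365, SRAKO2371 and SRAKO2372. The means, 15.8 ± 2.74 and 15.6 ± 1.91, gave a log2 difference of 0.00 (SE 0.15). Txnrd2, the selenoprotein that reduces thioredoxin 2, was at 2.60, 3.03 and 3.66 in the WT hearts and 2.66, 3.92 and 3.42 in the SRAKO hearts, with overlap and a difference of 0.08 (SE 0.14) that was -0.01 without WT2368. The Txn2 to Txnrd2 proportion ran from 3.82 in SRAKO2371 to 6.68 in SRAKO2365, so it varied more within SRAKO than the means of the genotypes differed (5.16 in WT and 4.87 in SRAKO). WT2379 had the lowest Txn2 of all hearts, and WT2368, lowest for 6 of the 8 genes, was not low for Txn2. Txn2 occupies chr15:77915047-77929006 (minus strand) and Txnrd2 chr16:18426384-18479073 (plus strand).

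**Figure D3:**
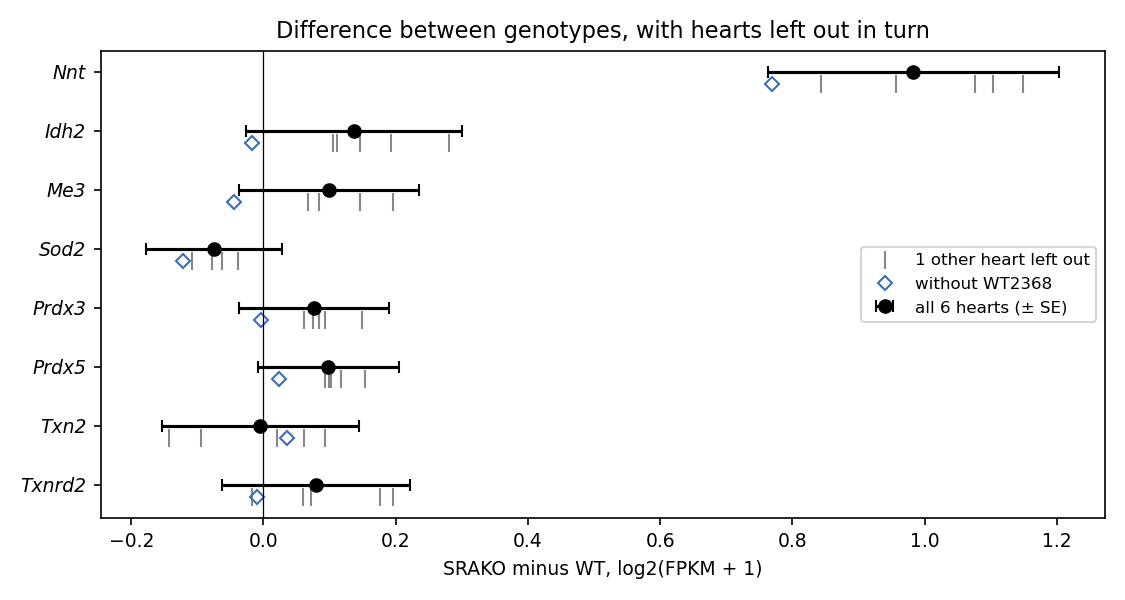
Log2 difference (SRAKO minus WT) with its SE for each of the 8 genes in all 6 hearts (black), and below it the value with 1 heart left out (ticks) or without WT2368 (blue diamonds). Nnt stays between 0.77 and 1.15, while the other 7 genes lie near 0.

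The order of the 8 genes by FPKM was the same in the 3 WT hearts: Idh2, Prdx3, Sod2, Prdx5, Nnt, Txn2, Me3 and Txnrd2. SRAKO2371 kept that order. Nnt stood 1 place higher in SRAKO2365, above Prdx5, and 2 places higher in SRAKO2372, above Prdx5 and Sod2. The ranges of Sod2, Prdx5 and, in SRAKO hearts, Nnt overlapped, although Sod2 exceeded Prdx5 in each WT heart. Me3 exceeded Txnrd2 in each heart, by 1.15 to 1.48 times, although their WT ranges overlapped. All 7 proportions of Nnt to another of the genes separated the genotypes, with SRAKO above. Each contains Nnt, so these proportions restate the difference for which Nnt was chosen and add no separate result. Of the 21 pairs without Nnt, 1 separated the genotypes, Sod2 to Prdx5, and the proportions spanned from 1.06 to 1.82 times between the lowest and the highest heart, against 2.30 to 3.89 times for the pairs with Nnt.

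Genes for mitochondrial structure showed no shift of the size seen in Nnt. Over 20 nuclear genes of this kind and of respiration, the median log2 deviation from the WT mean was -0.14, 0.04 and 0.10 in WT2368, WT2379 and WT2378 and -0.01, 0.01 and 0.04 in SRAKO2365, SRAKO2371 and SRAKO2372. Nnt deviated by -0.43, 0.19 and 0.24 in the WT hearts and by 1.04, 0.65 and 1.26 in the SRAKO hearts. The median genotype difference of the 20 genes was 0.01, the same as over all tested rows (0.01), and without WT2368 it was -0.06 against -0.04. Vdac1, Cox4i1, Sdha and Uqcrc1 are among them, and the widest differences in the group were 0.12 for Slc25a4, the adenine nucleotide carrier, and -0.08 for Immt, which shapes the cristae.

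**Figure D4:**
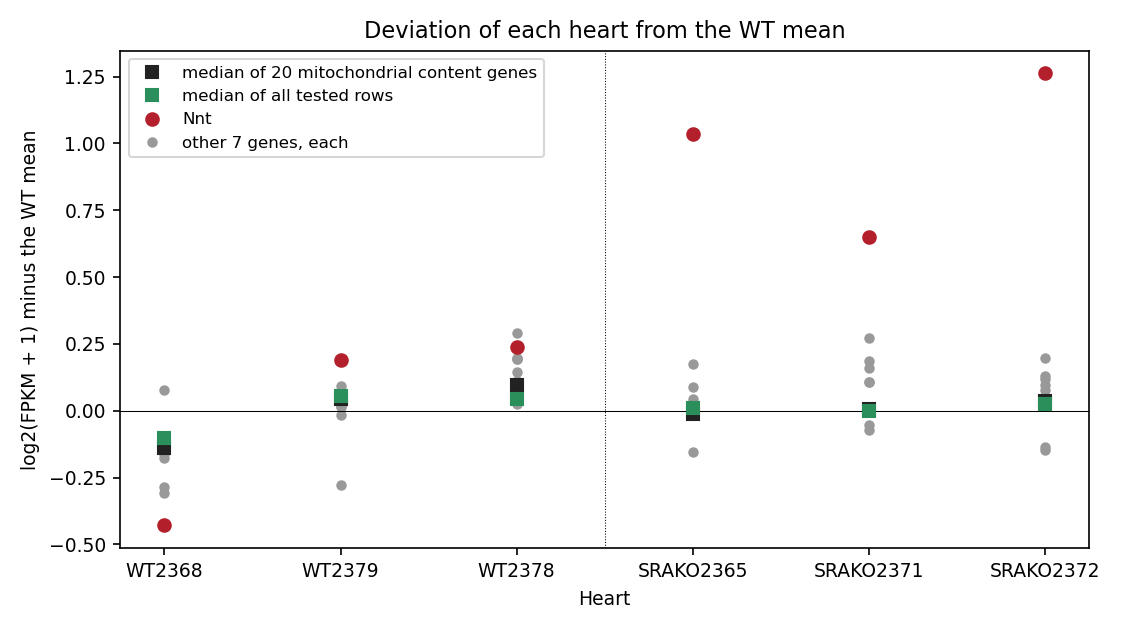
Deviation from the WT mean on the log2(FPKM + 1) scale in each heart for Nnt (red), the other 7 genes (grey), the median of 20 mitochondrial content genes (black) and the median of all tested rows (green). Nnt lies at 0.65 to 1.26 in SRAKO hearts, where both medians stay within 0.04 of the WT mean.

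The wider redox network was described through 10 lists written with earlier results of these data known. They hold 147 genes besides the 8, of which 131 passed the filter, 84 higher and 47 lower in SRAKO with a median of 0.05. Over all rows 53.5% were higher. These directions rested on WT2368: without it 50 of the 131 were higher and 81 lower, with a median of -0.04, the same as over all rows (-0.04). With limma and Benjamini-Hochberg adjustment 0 of the 131 passed (smallest adjusted p = 0.999), against 2 of all tested rows, 0.0196%. At an unadjusted limma p under 0.05 there were 4 higher and 3 lower, against 3.46% of all rows, 1.9% higher and 1.56% lower. The genotypes did not overlap in 12 of them, 7 with SRAKO above WT and 5 below, which is 9.16% against 8.05% of all rows.

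Among NADPH sources outside the 8 genes, 14 of 17 were tested, 8 higher and 6 lower with a median of 0.03 and 0 called, and without WT2368 6 higher and 8 lower with a median of -0.06. H6pd, which makes NADPH in the endoplasmic reticulum, split the SRAKO hearts. It was at 7.004, 8.74 and 9.17 in WT2368, WT2379 and WT2378 and at 8.77 in SRAKO2365, but at 2.12 in SRAKO2371 and 2.30 in SRAKO2372. The log2 difference of -0.99 did not pass (limma, Benjamini-Hochberg adjusted p = 0.999). G6pdx, the entry enzyme of the pentose phosphate pathway, was at 3.82 ± 0.658 and 4.99 ± 1.29, and Aldh1l2, a mitochondrial folate enzyme, at 1.52 ± 0.406 and 1.15 ± 0.234. Nadk2, the mitochondrial NAD kinase that supplies NADP+, was named outside the rule because it was the source whose SRAKO hearts (4.76 to 5.35) all lay above WT (4.19 to 4.72), with a difference of 0.13. The NAD-linked counterparts differed little: of 10 genes 3 were higher and 7 lower, with a median of -0.02 (-0.10 without WT2368) and 0 called. Idh3a was at 64.5 ± 1.42 and 61.2 ± 1.57, Idh3b at 120 ± 4.02 and 114 ± 1.37, and malate dehydrogenase Mdh1 at 402 ± 58.4 and 377 ± 5.87.

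In the glutathione and glutaredoxin arm, the second route that spends NADPH on peroxide, 15 of 19 tested genes were higher and 4 lower, with a median of 0.08 and 0 called. Without WT2368 8 were higher and 11 lower, with a median of -0.02. Gclm, the modifier subunit of glutathione synthesis, was at 1.83 ± 0.354 and 2.18 ± 0.0834, Mgst1 at 14.3 ± 0.777 and 17.2 ± 3.83, and Glrx5 at 5.74 ± 0.416 and 6.42 ± 0.622. Of the thioredoxin and peroxiredoxin system genes outside the 8, 10 were higher and 5 lower, with a median of 0.07 and 0 called, and without WT2368 6 and 9, with a median of -0.01. The reductases ran in opposite directions. Txnrd1, of the cytosol, was at 4.87, 6.58 and 5.97 in WT2368, WT2379 and WT2378 and at 4.83, 4.69 and 4.31 in SRAKO2365, SRAKO2371 and SRAKO2372, a difference of -0.27. Txnrd3 was at 3.32, 3.54 and 3.39 and at 4.77, 4.12 and 4.08, a difference of 0.27. Each was free of overlap between genotypes, and neither passed (limma, Benjamini-Hochberg adjusted p = 0.999). Msrb3, a methionine sulphoxide reductase, was at 17.1 ± 2.33 and 14.5 ± 1.21.

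Enzymes outside the 8 that remove superoxide and peroxide were higher in 5 of 6, with a median of 0.12 (0.05 without WT2368, and 0.02 with 3 of 6 higher without both WT2368 and SRAKO2371) and 0 called. Catalase, Cat, was at 67.6, 67.6 and 76.5 in WT2368, WT2379 and WT2378 and at 77.9, 80.0 and 90.9 in SRAKO2365, SRAKO2371 and SRAKO2372. Its genotypes did not overlap, with a difference of 0.23 (limma, Benjamini-Hochberg adjusted p = 0.999). Extracellular Sod3 was at 9.74 ± 1.49 and 11.3 ± 0.525 and Park7 at 20.5 ± 1.69 and 22.2 ± 1.85. The list for sources of reactive oxygen also holds regulators, adaptors and the oxidoreductase Aifm2, which are not themselves established sources. Of its 9 tested genes 8 were higher, with a median of 0.16 and 0 called (7 higher and 0.10 without WT2368). Monoamine oxidase B, Maob, at the outer mitochondrial membrane, had 13.96 ± 0.923 and 15.7 ± 0.0533 without overlap. Aifm2 was at 6.22 ± 0.720 and 7.35 ± 1.01, and Rac2, a leukocyte GTPase, at 1.40 ± 0.347 and 1.79 ± 0.295.

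NRF2-axis genes were higher in 9 of 14 and lower in 5, with a median of 0.03 and 0 called, but without WT2368 4 were higher and 10 lower, with a median of -0.08. Gsta4, a glutathione transferase for lipid aldehydes, was at 38.1, 38.3 and 37.9 in WT2368, WT2379 and WT2378 and at 45.6, 44.2 and 48.2 in SRAKO2365, SRAKO2371 and SRAKO2372. The groups were apart, with a difference of 0.26 (limma, Benjamini-Hochberg adjusted p = 0.999). Gstm1 was at 119 ± 6.56 and 155 ± 27.6 and Gstm2 at 48.7 ± 6.08 and 56.6 ± 4.07. Regulators of the 8 genes split evenly, 7 higher and 7 lower, with a median of -0.01 and 0 called (2 and 12, with a median of -0.08, without WT2368). Foxo1, a transcription factor of antioxidant genes, was at 2.52 ± 0.465 and 3.03 ± 0.407, and the deacylase Sirt5 at 1.98 ± 0.333 and 2.26 ± 0.0595. Ppargc1b, a coactivator of mitochondrial genes, was at 2.29 ± 0.577 and 2.05 ± 0.310.

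The list of NADPH-using enzymes of mitochondria and biosynthesis also holds ferredoxins, which are electron carriers and do not use NADPH themselves. Of its 10 tested genes 7 were higher and 3 lower, with a median of 0.08 and 0 called. Without WT2368 5 were higher and 5 lower, with a median of 0.00. Fdxr, which hands electrons from NADPH to mitochondrial ferredoxin, was at 1.43, 1.09 and 1.36 in WT2368, WT2379 and WT2378 and at 1.80, 1.52 and 1.88 in SRAKO2365, SRAKO2371 and SRAKO2372, a difference of 0.25 without overlap. Aldh18a1, the NADPH-dependent entry to proline synthesis, was at 2.41 ± 0.266 and 1.80 ± 0.0653, also without overlap, a difference of -0.28. Neither passed (limma, Benjamini-Hochberg adjusted p = 0.999 for each). The fatty acid synthase gene Fasn was at 5.23 ± 1.37 and 15.4 ± 14.3, and its SRAKO mean rested on SRAKO2371 at 31.3.

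**Figure D5:**
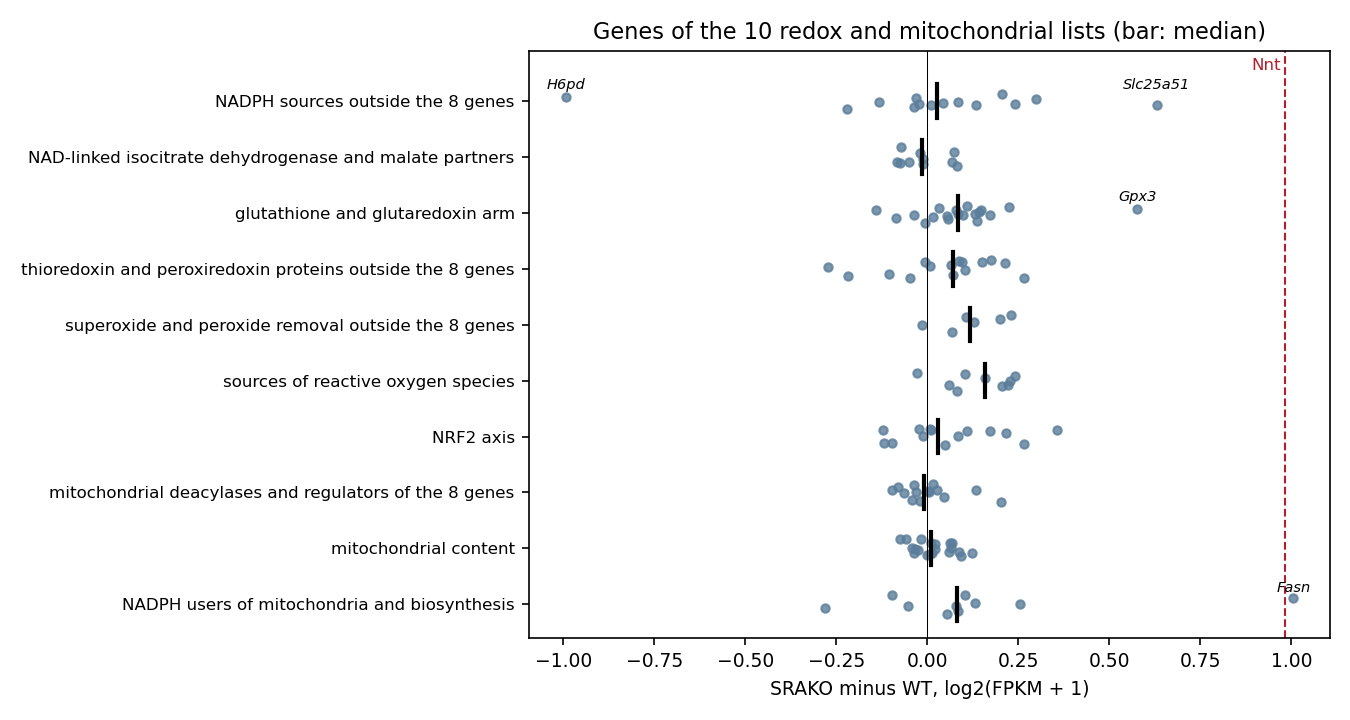
Log2 difference (SRAKO minus WT) of each tested gene in the 10 redox and mitochondrial lists, with the list median as a black bar and Nnt as a dashed line at 0.98. With all 6 hearts list medians lie between -0.02 and 0.16, and without WT2368 between -0.10 and 0.10, and genes beyond 0.50 in size are named.

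Markers of other cell types moved with the hearts in patterns of their own. The summed FPKM of 12 adipocyte markers was 143.5 to 188 in WT and 138, 493 and 261 in SRAKO2365, SRAKO2371 and SRAKO2372. The Nnt difference was 1.15 without SRAKO2371, the heart with the highest adipocyte sum. It was 0.84 without SRAKO2372, which had the next highest adipocyte sum, the highest neutrophil sum and the highest Nnt. The 10 neutrophil markers summed to 1.28 to 13.2 in WT and 3.41 to 68.7 in SRAKO, with Mpo at 0 in all hearts but SRAKO2371. Macrophage markers (8 of 8 present) summed to at most 119 in WT and 121 to 136 in SRAKO without overlap. Taken singly, C1qa was apart (at most 32.7 in WT, 35.1 to 38.2 in SRAKO), and the other macrophage markers overlapped. Adgre1 had the lower mean in SRAKO (1.92 against 2.02 in WT), and the rest had the higher mean. Endothelial markers (8 of 8 present) summed to 265 to 276 and 279 to 293, but without Fabp4, which adipocytes also express, to 168 to 183 and 161 to 181 with overlap, and 6 of those 7 had the lower mean in SRAKO. The part of adipocyte, neutrophil, macrophage and endothelial RNA in the Nnt difference was not tested. Cardiomyocyte sums overlapped, at 10737 to 13167 in WT and 11639 to 11750 in SRAKO, as did the sums of the 8 other marker lists. The ribosomal RNA list also held structural RNAs that are not ribosomal (Rn7sk, Rn7s1 and Rn7s2). Its 7 tested genes were all lower on average in SRAKO, with a median of -0.49 and 0 called. Without WT2368 6 of the 7 were higher, with a median of 0.41. With SRAKO2371 left out as well, all 7 were lower, with a median of -0.27.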

How the data were processed

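RNA of 6 mouse hearts, 3 WT and 3 SRAKO by their titles, had been sequenced after oligo(dT) selection, per the labels' protocols. The authors deposited FPKM values per gene and heart in 1 table, which is not a count table; the number of reads behind each value was not derived here. The submitters' processing notes list StringTie 1.3.4d, edgeR, HISAT2 2.0.4 and cutadapt 1.9. They name the human build hg38, although the identifiers are of mouse genes. Of the transcript identifiers, 99.6% matched GENCODE M21 (GRCm38), which gave the positions printed here.

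Values were taken as log2(FPKM + 1). The 10201 of 25901 rows that reached an FPKM of 1 in 3 or more hearts were fitted by genotype with limma 3.58.1 in R 4.3.3 (variance trend, two-sided moderated test, Benjamini-Hochberg threshold of 0.05). The code was tested on simulated data. A symbol in several rows was read from the row with the highest mean. The log2 scale with a pseudocount of 1 understates changes of weak genes such as Me3 and Txnrd2. Overlap of a pair of genotypes means that a heart of one lies within the range of the other.

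The 8 genes and all lists were chosen with earlier results of these data known. Named besides the 8 were Sra1, up to 3 tested genes per list with the smallest p, tested genes within 1 Mb of Nnt, and the 6 rows nearest to Nnt in profile. Genes outside this rule, such as Nadk2, are named as such or only as examples of a list. No set test was run. Alternatives varied the pseudocount, filter, scaling, weights, row choice and hearts.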

Additional observations from a re-analysis of the deposited data

How the results depend on the processing

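The Nnt difference stayed between 0.77 and 1.15 over the 16 alternatives, moving by less than 1 SD between hearts in each. Some of the 16 could not change the difference of a gene. The filters, the batch term and the sum over rows of a symbol returned the main value (0.98 for Nnt) by construction. Prdx5 stayed above 0 (0.02 to 0.15) and Sod2 below 0 (-0.12 to -0.04) in the alternatives, whereas Idh2, Me3, Prdx3, Txn2 and Txnrd2 took both signs. Me3 and Txnrd2 have no value with a filter at an FPKM of 5. Of all tested rows 2 were called, and this count moved. It was 1 with a pseudocount of 0.1 or with a filter at an FPKM of 5, and 0 of 25901 with no filter (919 at an unadjusted p under 0.05). Leaving out single hearts gave counts of 0 to 7: 0 without WT2368 (683 unadjusted) or SRAKO2365 (409), 1 without SRAKO2371 or SRAKO2372, 6 without WT2379 and 7 without WT2378. Leaving out WT2368 and SRAKO2371 together (672) and fitting them as a batch term (407), both added after seeing the data, gave 0. The cause was not tested. In the 10 lists 0 genes were called under each alternative run (limma, Benjamini-Hochberg), with 2 to 9 at an unadjusted p under 0.05. Of the 10 list medians 6 changed sign without WT2368, a comparison also added after seeing the data. The genes nearest to Nnt depended on the measure: with each profile also divided by its SD, 0 of the 6 were shared. No paired analysis was possible because the hearts of the genotypes share no replicate number.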

Other observations

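Among the 1276 tested rows that the authors' deposited table annotates to the mitochondrion, which do not include the Nnt row, 3 had a larger log2 difference than Nnt. These were Ucp1, the uncoupling protein of brown fat, at 7.74 ± 8.85 in WT and 50.3 ± 49.03 in SRAKO, the glycerol-phosphate dehydrogenase Gpd1 at 25.3 ± 8.44 and 62.7 ± 43.2, and Fasn. All overlapped between genotypes, were highest in SRAKO2371, and had an adjusted p of 0.999 in limma with Benjamini-Hochberg adjustment. The median difference of these 1276 rows was 0.02.

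Gpx3, the secreted glutathione peroxidase, and Slc25a51, the mitochondrial NAD+ carrier, were picked out after their values were seen. Gpx3 was at 581 in SRAKO2371 and at 105 to 207 in the other hearts, with a difference of 0.58. Slc25a51, in a row with Gm25692, fell into a low and a high set of hearts irrespective of genotype, at 1.43, 1.70 and 1.78 in WT2368, WT2379 and SRAKO2365 and at 6.39, 6.61 and 7.52 in WT2378, SRAKO2371 and SRAKO2372.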
